A study of Rattus norvegicus with 6 samples.

Results

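The insulin-like growth factor (IGF) system of the rat right ventricle (RV) was described through 10 genes, chosen by name as the IGF ligands Igf1 and Igf2, the receptors Igf1r and Igf2r, and the binding proteins Igfbp2, Igfbp3, Igfbp4, Igfbp5, Igfbp6 and Igfbp7. Of these, 8 had a row among the 12958 named genes and all 8 were among the 10725 genes tested, whereas Igfbp2 and Igfbp3 were not analysed here. RNA sequencing compared 3 control RV libraries, taken at day 0 from male Sprague-Dawley rats with no treatment named in the labels, with 3 SuHx RV libraries of the same sex and strain, labelled Decompensated RV and taken at 8 weeks. The rats were adult. SuHx rats received a subcutaneous injection of SU5416 at 25 mg/kg, a compound that blocks the VEGF receptor, followed by 4 weeks of hypoxia at a FiO2 of 10% and a return to normoxia. No 8-week control is among these libraries, so SU5416, hypoxia, pressure load and 8 weeks of growth cannot be told apart in any difference given here. The labels do not state that each library came from its own rat, so p-values measure the spread between libraries only. The SuHx libraries are lettered A, B and C, since their columns could not be tied to the numbered samples. Values are given in the order control 1, 2 and 3, then SuHx A, B and C.

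IGF-1 and IGF-2 are small secreted peptides related to insulin. IGF-1 is made by the liver under growth hormone and also locally, by fibroblasts and macrophages among others, while IGF-2 is mainly a growth factor of the fetus and its gene is imprinted in rodents. Both signal through the IGF-1 receptor, a tyrosine kinase that acts on the PI3K-AKT and RAS-MAPK branches and is known in the heart for its part in physiological growth and cardiomyocyte survival. The IGF-2 receptor has no kinase: it clears IGF-2 and sorts lysosomal enzymes that carry mannose 6-phosphate. The binding proteins hold IGFs outside the cell, lengthen their lifetime or keep them from the receptor, and proteases such as PAPP-A release them.

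In the SuHx RV, Igfbp6 was the only one of the 8 genes that passed the test, at 2.55-fold the control level. This call was lost in 10 of 17 alternative settings, among which were 5 of the 6 fits with 1 library left out. Transcripts of both receptors, Igf1r and Igf2r, were also higher in every SuHx library than in every control, without passing the test. Over all tested genes, 1.55% were called higher, and in 12.9% every SuHx library lay above every control. The ligands Igf1 and Igf2 and the binding proteins Igfbp4, Igfbp5 and Igfbp7 overlapped between the groups. These are bulk tissue values, in which fewer cells of a type and less RNA per cell cannot be told apart.

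The 250 bases before the RefSeq gene start (GRCr8) are shown for the 3 genes whose SuHx libraries all lay above all controls, of which only Igfbp6 passed the test. The coordinates come from the RefSeq table and not from the expression values. Capitals mark GC boxes, GGGCGG or its reverse complement CCGCCC, and all windows read 5′ to 3′ on the plus strand.
Igf1r, chr1:130959747-130959996: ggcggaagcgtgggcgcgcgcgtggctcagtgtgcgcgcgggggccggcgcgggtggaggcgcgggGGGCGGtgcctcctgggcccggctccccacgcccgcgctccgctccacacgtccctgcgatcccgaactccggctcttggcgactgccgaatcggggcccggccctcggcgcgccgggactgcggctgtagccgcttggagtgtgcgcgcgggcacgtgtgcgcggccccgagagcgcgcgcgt
Igf2r, chr1:50526628-50526877: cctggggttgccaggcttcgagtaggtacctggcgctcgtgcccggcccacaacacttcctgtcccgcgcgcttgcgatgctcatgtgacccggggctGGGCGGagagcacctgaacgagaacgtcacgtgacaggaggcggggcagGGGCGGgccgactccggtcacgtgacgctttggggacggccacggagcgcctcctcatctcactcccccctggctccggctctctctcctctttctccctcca
Igfbp6, chr7:135154669-135154918: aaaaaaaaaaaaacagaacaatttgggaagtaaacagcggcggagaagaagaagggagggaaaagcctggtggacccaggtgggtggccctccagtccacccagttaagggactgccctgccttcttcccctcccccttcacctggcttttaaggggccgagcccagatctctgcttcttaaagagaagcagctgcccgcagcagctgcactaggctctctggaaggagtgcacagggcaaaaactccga
The windows of Igf1r and Igf2r held 45 and 23 CG dinucleotides and that of Igfbp6 held 5, the median of all 33469 windows of this length. Members whose groups overlapped had such windows too, with 26 CG dinucleotides and 4 GC boxes for Igfbp7 and 21 CG dinucleotides for Igfbp4. GC content was 79.6% for Igf1r, 68% for Igf2r and 54.8% for Igfbp6, against a median of 51.2% over all windows. The GC box, searched on both strands, occurred once in the Igf1r window, 2 times in that of Igf2r and not in that of Igfbp6, and 30.5% of all windows held it. The letters CACGTG, an E box that reads the same on both strands, occurred once in Igf1r and 2 times in Igf2r, and 5.59% of all windows held them, as did that of Igfbp2, which was not analysed. TATAAA, searched on both strands, was in none of the 3 windows and in 12.9% of all windows. No match of one motif overlapped a match of another in these windows. A match is a description of the sequence, and the motifs were chosen with the values known.

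Values were counts per gene that the authors normalised with DESeq2, and they are called normalised counts here. Their totals ran from 11607609 to 12393415 in control and from 12754296 to 18249330 in SuHx, with 51.9% to 67.2% of a library in transcripts with mitochondrial names. Markers of ventricular cardiomyocytes were present in all 6 libraries (9 of 9 genes, summed level 616054 to 759776 normalised counts in control and 543265 to 662262 in SuHx). Control 1 stood apart, since it also held atrial genes, with 1353 normalised counts of Myl7 and 2363 of Bmp10 against 0 for both genes in the other controls. Control 3 stood apart in a long-transcript score, the mean log2 level of 6 long genes against 70 ribosomal protein genes relative to the other libraries. The score is used as a sign of RNA quality. It was -0.26, -0.037 and -1.21 in the controls, in order, and 0.17, 0.67 and 0.66 in the SuHx libraries. Its 6 long genes went both ways between the groups. Log2 fold changes (SuHx minus control) were 2.89 for Utrn, 0.96 for Ryr2, 0.74 for Dst and 0.47 for Hspg2. For Ank2 and Akap9 they were -0.060 and -0.86. Utrn was itself called higher in SuHx (limma adjusted p = 0.028), and Akap9 was highest in control 3. Birc6, listed but at 0 in SuHx A, was left out. How far the score reflects RNA quality was not tested. Values without control 1 or control 3 are given beside the results that these libraries moved most.

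Gene by gene, log2(normalised count + 1) was compared with limma over the 10725 genes that averaged 10 or more normalised counts, two-sided, with Benjamini-Hochberg adjustment, and a gene was called at an adjusted p under 0.05. Of the 8 members, 1 was called higher, against a background of 1.55% of all tested genes, and 0 were called lower, against 0.671%. At an unadjusted p under 0.05, 2 members were higher, against 9.61% of tested genes, and 0 were lower, against 7.59%. The study's thresholds for a DEG, an adjusted p under 0.01 plus more than a 2-fold change, were also applied to this limma fit. With them 0 members were called, against 0.27% of tested genes. The study applied them to a DESeq2 test, which was not run here. In 3 of the 8 every SuHx library lay above every control, against 12.9% of tested genes, and in 0 every SuHx library lay below, against 11.6%. The median log2 fold change of the 8 genes was 0.15 and that of all tested genes 0.0095. The mean log2 value was higher in SuHx for 5 members and lower for 3, but Igfbp4 and Igfbp7 turned to lower under equal totals, a scaling that shifted the median of all tested genes to -0.31.

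**Figure D1:**
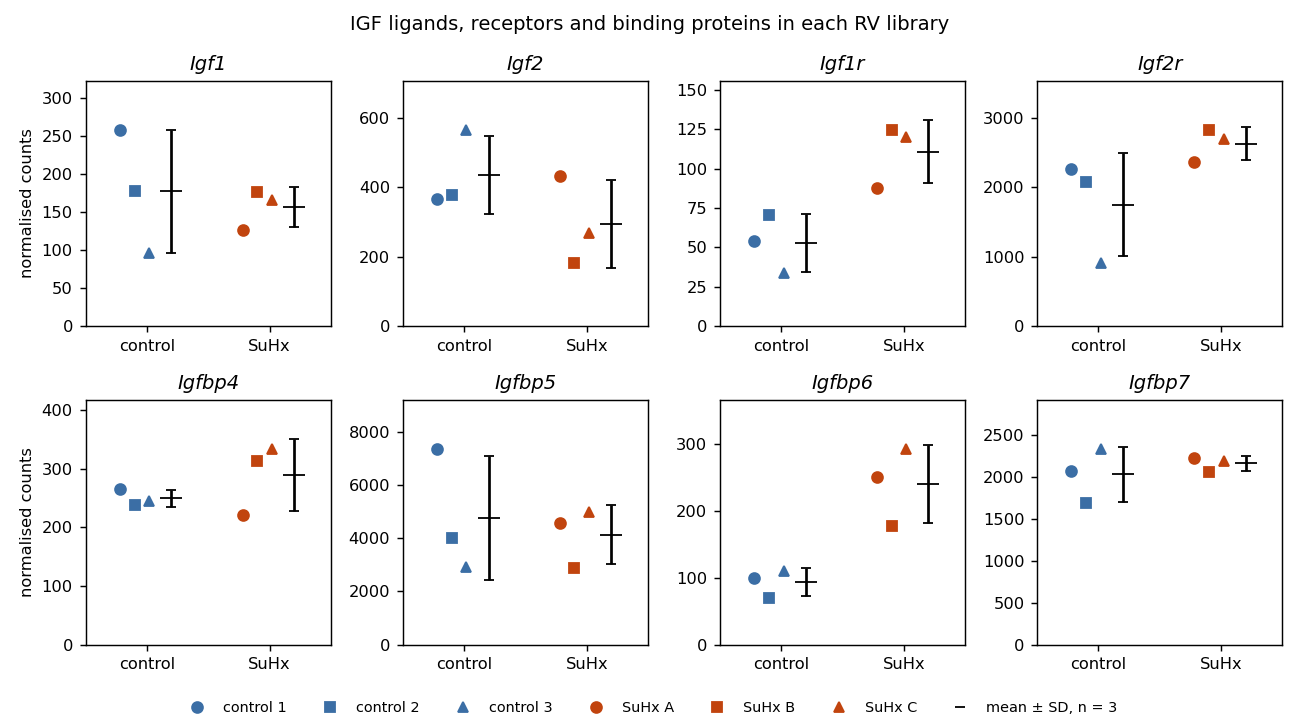
Normalised counts (y axis, from 0) of the 8 IGF genes in each control and SuHx RV library, 1 point per library, with the mean and SD of each group (n = 3). The SuHx points lie above all control points for Igf1r (88.0 to 125 against 33.7 to 70.8), Igf2r (2358 to 2823 against 901 to 2261) and Igfbp6 (178 to 294 against 69.8 to 110), and the groups overlap for the other 5 genes.

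Among the ligands, Igf1 was measured at 258 normalised counts in control 1, 177 in control 2 and 96.5 in control 3, and at 126, 176 and 166 in SuHx. The SuHx libraries all lay within the range of the controls, which spread 2.67-fold between the lowest and the highest. Means were 177 ± 80.6 (SD, n = 3) and 156 ± 26.2 (SD, n = 3), a log2 fold change of -0.087 (95% interval -0.90 to 0.73, limma adjusted p = 0.92, exact permutation p = 0.8, two-sided). The interval reaches from a fold of 0.53 to one of 1.66, so changes within that range remain compatible with these libraries. Without control 1 the log2 fold change was 0.24, and without control 3 it was -0.47.

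The 3 controls stood in the same order for Igf1 as for the summed level of 7 fibroblast markers, 15570, 10685 and 9351 normalised counts in controls 1, 2 and 3. Pdgfra, Dcn, Lum and Dpt kept that order singly, while Tcf21, Col1a1 and Postn were lowest in control 2. In SuHx A, B and C the fibroblast sum was 11244, 12184 and 13213, within the range of the controls. Its order there differed from that of Igf1, which was highest in SuHx B. Macrophage markers, of which 5 of 7 had a row, summed to 940, 617 and 548 in control and 619, 1712 and 1697 in SuHx, and 0 of the 5 tested were called. The part of these cell types in the Igf1 values was not tested. Genes whose pattern over the 6 libraries was nearest to Igf1 (Euclidean distance of centred log2 values) were Ikbip (0.24), Pcdhb10 (0.25) and Dkk3 (0.29), the last a secreted glycoprotein of the Dickkopf family. Like Igf1, Dkk3 was highest in control 1 and lowest in control 3, at 3282, 2192 and 1178 normalised counts in control and 1455, 2544 and 1875 in SuHx.

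Igf2 was measured at 365, 376 and 564 normalised counts in control and at 432, 182 and 267 in SuHx. SuHx B and C lay below all controls and SuHx A within their range. Means were 435 ± 112 (SD, n = 3) and 294 ± 127 (SD, n = 3), with a log2 fold change of -0.63 that did not pass the test (95% interval -1.39 to 0.14, limma adjusted p = 0.38, exact permutation p = 0.3, two-sided). The value rested in part on SuHx B, without which it was -0.33, and without SuHx A it was -0.95. The genes nearest in pattern to Igf2 were Dhx35 (distance 0.24), Rnf122 (0.25) and Ndufs7 (0.27), a subunit of respiratory complex I. Ndufs7 stood at 995, 1044 and 1620 normalised counts in control and 1093, 585 and 695 in SuHx, highest in control 3 and lowest in SuHx B as Igf2 was.

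Of the receptors, Igf1r was measured at 53.9, 70.8 and 33.7 normalised counts in control and at 88.0, 125 and 120.2 in SuHx. Every SuHx library lay above every control, with a gap of 17.2 normalised counts between SuHx A and control 2. Means were 52.8 ± 18.6 (SD, n = 3) and 110.9 ± 20.0 (SD, n = 3), a 2.15-fold difference (95% interval 1.31 to 3.51). The log2 fold change of 1.10 had an unadjusted p of 0.0075 and a limma adjusted p of 0.12, so it was not called, and the exact permutation p was 0.1, two-sided, the smallest that 3 against 3 libraries allow. Over 17 alternative settings the log2 fold change ran from 0.62 to 1.34 and the adjusted p from 0.071 to 0.41, always higher in SuHx and never called.

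Igf2r, the mannose 6-phosphate and IGF-2 receptor, was measured at 2261, 2079 and 901 normalised counts in control and at 2358, 2823 and 2695 in SuHx. The groups did not overlap, but SuHx A lay only 97.3 normalised counts above control 1, and control 3 was far below the other 5 libraries. Means were 1747 ± 739 (SD, n = 3) and 2625 ± 239.9 (SD, n = 3), a log2 fold change of 0.69 (95% interval -0.096 to 1.48, limma adjusted p = 0.35, exact permutation p = 0.1, two-sided). Without control 3 the log2 fold change of Igf2r was 0.27.

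Both receptor transcripts moved with the long-transcript score. In that score every SuHx library also lay above every control, so score and group cannot be told apart across the 6 libraries. Utrn, a gene of the score, was itself called higher in SuHx. From the lowest to the highest library, Igf1r ran control 3, control 1, control 2, SuHx A, SuHx C and SuHx B, the same order as the score. Igf2r followed the same order except that control 1 lay above control 2. Insr, which encodes the insulin receptor and can pair with the IGF-1 receptor in hybrids, ran in the order of Igf1r, at 746, 802 and 432 normalised counts in control and 918, 1181 and 998 in SuHx. Its log2 fold change was 0.69 (95% interval 0.10 to 1.27), with an unadjusted p of 0.027 and a limma adjusted p of 0.23. All 3 receptors also lay higher in SuHx without control 3, the library with the lowest score. Log2 fold changes there were 0.82 for Igf1r, 0.27 for Igf2r and 0.41 for Insr. None was called (limma adjusted p = 0.12, 0.29 and 0.17). The remaining controls still had lower scores than every SuHx library, so this fit cannot separate score from group. The part of transcript length or RNA quality in these values was not tested.

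**Figure D2:**
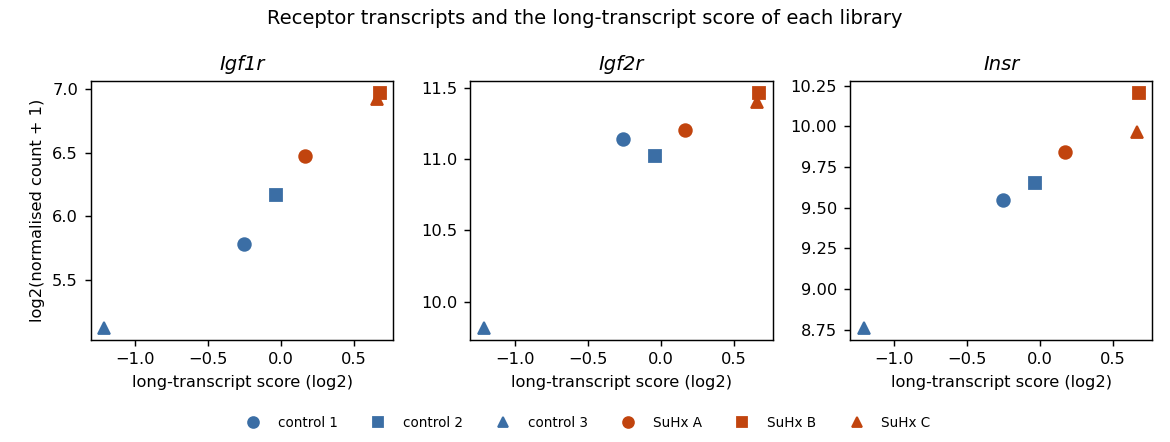
Level of Igf1r, Igf2r and Insr (y axis, log2(normalised count + 1)) against the long-transcript score of the library (x axis, log2), 1 point per library. Control 3 has the lowest score (-1.21) and the lowest level of all 3 genes, and SuHx B and C have the highest scores (0.67 and 0.66) and the highest levels.

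Of the 6 binding proteins listed, 4 were tested. Igfbp6, which binds IGF-2 in preference to IGF-1, was measured at 100.4, 69.8 and 110.0 normalised counts in control and at 250.5, 178 and 294 in SuHx. Every SuHx library lay above every control, with a gap of 68.0 normalised counts between SuHx B and control 3. Means were 93.4 ± 21.0 (SD, n = 3) and 240.7 ± 58.5 (SD, n = 3), a 2.55-fold rise (95% interval 1.69 to 3.86) with a log2 fold change of 1.35 and a limma adjusted p of 0.046. By its unadjusted p of 0.00095, Igfbp6 ranked 222 among the 10725 tested genes, and its exact permutation p was 0.1, two-sided.

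The call on Igfbp6 held in 7 of 17 alternative settings and was lost in 10, with adjusted p-values from 0.021 to 0.20 and log2 fold changes from 1.03 to 1.74. It was lost with any one of control 1 (adjusted p = 0.094), control 2 (0.10), SuHx A (0.16), SuHx B (0.070) or SuHx C (0.20) left out, and kept without control 3 (0.035).

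Igfbp6 is known from fibroblasts and from the mesothelial and epicardial covering of the heart. Of the mesothelial and epicardial markers, Wt1 stood at 85.3, 173 and 233 normalised counts in control and 262, 257 and 291 in SuHx (log2 fold change 0.83, limma adjusted p = 0.28), while Krt19 was at 0 in 3 libraries and Msln at 0 in 3. The summed level of the 3 markers of that list with a row was 98.7 to 233 in control and 265 to 291 in SuHx. Like Igfbp6, the sum was higher in every SuHx library than in every control. Wt1 made up most of it, and the log2 fold change of Wt1 was 0.42 without control 1. Among the controls the sum was lowest in control 1, whereas Igfbp6 was lowest in control 2. Of 7 fibroblast markers tested, 1 was called higher, where 1.55% of all tested genes were. It was Postn, an extracellular matrix protein of activated fibroblasts, at 49.4, 19.8 and 20.8 in control and 118, 89.4 and 123 in SuHx. The call on Postn (limma adjusted p = 0.047) was lost in 10 of 17 alternatives (0.016 to 0.21 over all), among which were the fits without control 2 (0.11), control 3 (0.062), SuHx A (0.17), SuHx B (0.12) and SuHx C (0.21). Other fibroblast markers were not called and went both ways. Log2 fold changes were -0.63 for Pdgfra, -0.93 for Tcf21 and -1.38 for Dpt, and 0.031 for Dcn, 0.030 for Lum and 0.31 for Col1a1. The summed level of the fibroblast markers overlapped between the groups, and the median log2 fold change of the 7 was 0.030. The part of these cells in the Igfbp6 values was not tested. The genes nearest in pattern to Igfbp6 were Fuca1 (distance 0.42), which encodes a lysosomal fucosidase, Mxra7 (0.43) and Klhl6 (0.43). Fuca1 stood at 174, 148 and 244 normalised counts in control and 435, 396 and 499.7 in SuHx, values that are a description, since the gene was chosen for this pattern.

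Igfbp4, an inhibitor of IGF action that PAPP-A cleaves, was measured at 266, 239 and 245 normalised counts in control and at 220.5, 313 and 335 in SuHx. SuHx A lay below all controls and SuHx B and C above them. The log2 fold change was 0.19 (95% interval -0.25 to 0.64, limma adjusted p = 0.65, exact permutation p = 0.4, two-sided). The controls differed by 1.11-fold between the lowest and the highest, the narrowest control spread of the 8 genes.

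Igfbp5, a binding protein that attaches to the extracellular matrix, was measured at 7375, 4000.3 and 2920 normalised counts in control and at 4569, 2863 and 4968 in SuHx. Control 1, the library with atrial genes, was the highest of the 6 and the groups overlapped. Means were 4765 ± 2324 (SD, n = 3) and 4133 ± 1118 (SD, n = 3), a log2 fold change of -0.14 (95% interval -0.98 to 0.71, limma adjusted p = 0.88, exact permutation p = 0.9, two-sided). Without control 1 the log2 fold change of Igfbp5 was 0.23. In the GRCr8 table Igfbp5 lies next to Igfbp2 on chromosome 9, while Igf1 and Igfbp6 are both on chromosome 7 without being neighbours.

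Igfbp7, a secreted protein of vessel walls and matrix with weaker binding of IGFs, was measured at 2066, 1685 and 2335 normalised counts in control and at 2227, 2057 and 2191 in SuHx. The 3 SuHx libraries were within 1.08-fold of each other and inside the control range. The log2 fold change was 0.10 (95% interval -0.26 to 0.47, limma adjusted p = 0.78, exact permutation p = 0.7, two-sided), which leaves room for folds between 0.83 and 1.38.

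**Figure D3:**
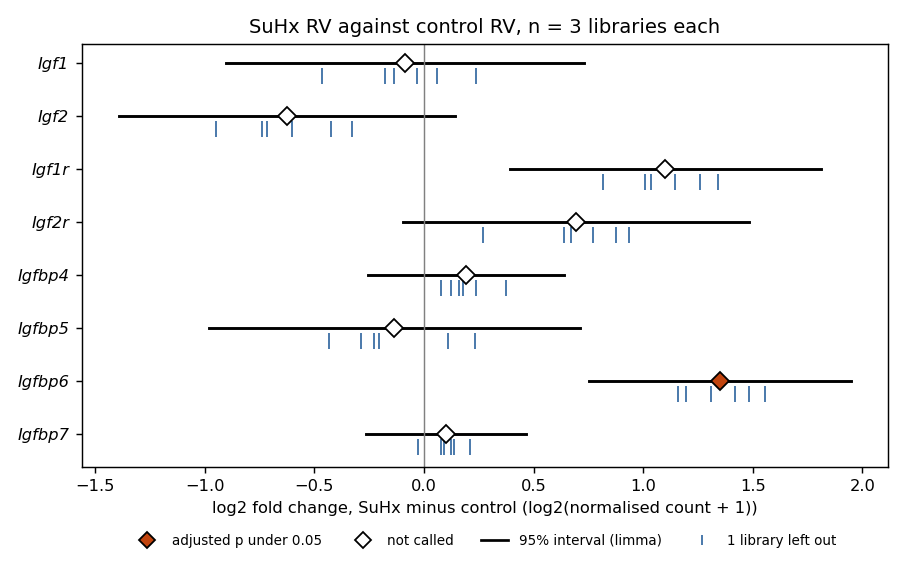
Log2 fold change of each IGF gene, SuHx minus control (x axis, log2(normalised count + 1)), with the 95% interval of the limma fit and, as ticks, the value with each of the 6 libraries left out in turn. Only Igfbp6 (1.35) is filled as called, the interval of Igf1r (0.39 to 1.81) also lies above 0, and the ticks of Igf1, Igfbp5 and Igfbp7 fall on both sides of 0.

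Ratios within a library cancel any factor that scales the whole library, and 3 were compared by an exact permutation test. Igf1 minus Igf1r, on the log2 scale, was 2.24, 1.31 and 1.49 in control and 0.52, 0.49 and 0.46 in SuHx. The difference was -1.19 between the means of 1.68 ± 0.49 (SD, n = 3) and 0.49 ± 0.026 (SD, n = 3), with every SuHx library below every control (exact permutation p = 0.1, two-sided, 0.3 adjusted over the 3 ratios). The ligand stood lower against its receptor in all SuHx libraries, where Igf1r had a log2 fold change of 1.10 and Igf1 one of -0.087. The difference was -0.91 without control 1 and -1.37 without control 2. Igf1r ran in the order of the long-transcript score, and the part of transcript length or RNA quality in this ratio was not tested. Igf2 minus Igf2r was -2.63, -2.46 and -0.67 in control and -2.44, -3.95 and -3.33 in SuHx, and the groups overlapped (difference -1.32, exact permutation p = 0.3, two-sided, 0.45 adjusted). Control 3 moved this difference most, and it was -0.70 without control 3 and -1.72 without SuHx A. Igf1 minus Igf2 was -0.50, -1.08 and -2.54 in control and -1.77, -0.052 and -0.68 in SuHx (difference 0.54, exact permutation p = 0.6, two-sided, 0.6 adjusted), and the difference was -0.042 without control 3. Transcript lengths were not used, so the size of a ratio does not compare the levels of 2 genes and only its change between libraries can be read.

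**Figure D4:**
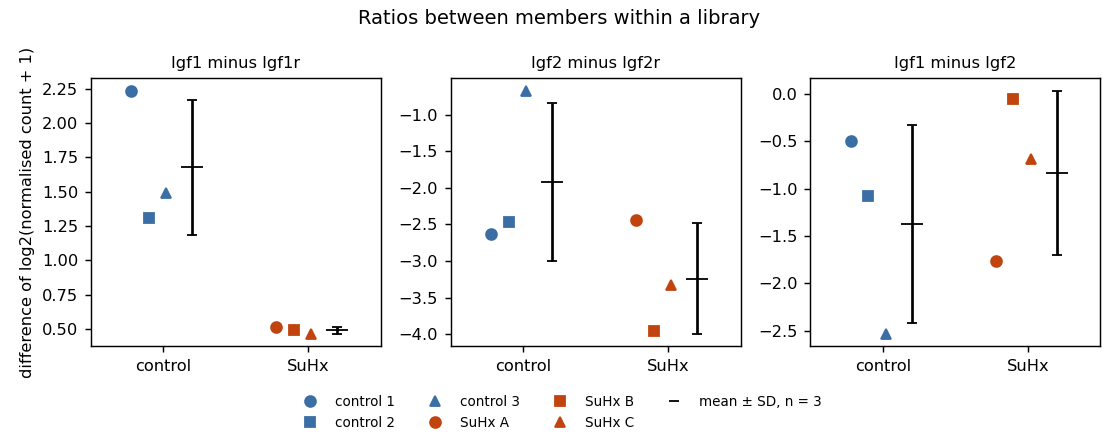
Differences of log2(normalised count + 1) between pairs of IGF genes within each library (y axis, log2), with the mean and SD of each group (n = 3). For Igf1 minus Igf1r the 3 SuHx libraries sit between 0.46 and 0.52, below all controls (1.31 to 2.24), while the groups overlap for the other pairs.

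Other genes of the IGF system were taken from 6 lists with 83 genes, of which 68 had a row and 64 were tested. Of the 64, 1 was called higher, 1 was called lower and 62 were not called, and their median log2 fold change was 0.17, against 0.0095 for all tested genes. Over all tested genes 1.55% were called higher and 0.671% called lower. An unadjusted p under 0.05 was reached by 10 of the 64 upward and 5 downward, where 9.61% and 7.59% of all tested genes reached it, so the call upward and the downward count were near the background.

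The 2 called genes, Stc1 and Stc2, belong to the 9 tested extracellular partners and encode stanniocalcins, secreted proteins that inhibit PAPP-A. They went in opposite directions. Stc1 rose from 97.7, 90.6 and 125 normalised counts in control to 263, 276 and 348 in SuHx (log2 fold change 1.50, SE 0.19, limma adjusted p = 0.015). Stc2 fell from 159, 208 and 124 to 62.0, 53.4 and 41.0 (log2 fold change -1.62, SE 0.26, limma adjusted p = 0.029). The groups did not overlap for either gene. The direction of both held in all 17 alternatives. The call on Stc1 was lost in 5 of them (adjusted p from 0.0041 to 0.087 over all), among which were the fits without control 2 (0.0502), SuHx A (0.061), SuHx B (0.060) and SuHx C (0.087). That on Stc2 was lost in 7 (0.0072 to 0.13 over all), among which were the fits without control 1 (0.071), control 2 (0.077), SuHx A (0.0795), SuHx B (0.098) and SuHx C (0.13). Pappa itself, the protease, was under the filter, at 0, 2.11 and 10.7 normalised counts in control and 1.51, 8.69 and 2.81 in SuHx.

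The other 7 extracellular partners were not called. At an unadjusted p under 0.05, Adam9, a metalloproteinase, and Lrp1, an endocytic receptor, were higher and Htra1, a secreted serine protease that cleaves binding proteins, and Vtn, the matrix protein vitronectin, were lower. These 4 genes are named after their values were seen. Lrp1 was measured at 2403, 1564 and 1259 normalised counts in control and 2506, 3320 and 4012 in SuHx (limma adjusted p = 0.14), and Vtn at 435, 476 and 606 in control and 258, 328 and 343 in SuHx (limma adjusted p = 0.11).

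The mannose 6-phosphate route, which tags and sorts the lysosomal enzymes that Igf2r carries, had 0 of 6 tested genes called and a median log2 fold change of -0.28. Its most abundant genes, the sorting adaptors Gga1 and Gga2, had log2 fold changes of 0.058 and 0.25 (limma adjusted p = 0.85 and 0.59). In this list 5 of 6 genes overlapped between the groups, and in 1 every SuHx library lay below every control. Over all tested genes 11.6% lay below in this way and 12.9% above, so the count was near the background.

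Of the growth hormone axis and the regulators of IGF transcripts, 0 of 8 tested genes were called, with a median of -0.054. Ghr, the growth hormone receptor, was measured at 1190, 1457 and 734 normalised counts in control and at 969, 979 and 931 in SuHx (log2 fold change -0.18, limma adjusted p = 0.75). Stat5b, which carries the growth hormone signal to the nucleus, had a log2 fold change of -0.068 (limma adjusted p = 0.89). Plagl1, a zinc finger factor known in the mouse to act on imprinted genes that include Igf2, is named after its values were seen. It stood at 71.9, 41.7 and 62.5 normalised counts in control and 109.6, 137 and 94.4 in SuHx, apart in the direction opposite to the mean of Igf2 (log2 fold change 0.96, limma adjusted p = 0.12).

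Receptor-proximal signalling had 0 of 11 tested genes called and a median of 0.22, with every SuHx library above every control for 5, where 12.9% of all tested genes were. Ptpn11, the phosphatase SHP2 that links the receptor to RAS, was measured at 2692, 2615 and 1850 normalised counts in control and at 3914, 3873 and 3825 in SuHx. The 3 SuHx libraries lay close together and above all controls, with a log2 fold change of 0.72 (95% interval 0.31 to 1.12) and a limma adjusted p of 0.093. Over the 17 alternatives its adjusted p ran from 0.040 to 0.35, and it was called in 2, one of them without control 3. Irs2, an adaptor of the insulin and IGF-1 receptors named after its values were seen, stood at 431, 429 and 183 in control and 574, 930 and 771 in SuHx (log2 fold change 1.20, limma adjusted p = 0.15). The related adaptor Irs1 overlapped between the groups, at 210, 157 and 57.5 in control and 161, 64.4 and 126 in SuHx. Irs2, Ptpn11 and Insr were all lowest in control 3.

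Further downstream, the PI3K-AKT-FoxO branch had 0 of 18 tested genes called (median 0.21) and the RAS-MAPK branch 0 of 12 (median 0.20). The kinases Akt1 and Akt2 had log2 fold changes of -0.038 and 0.24 (limma adjusted p = 0.93 and 0.62), and the kinase Map2k2 had one of 0.0088 (limma adjusted p = 0.99). The signs of Akt2 and Map2k2 turned when all libraries were scaled to the same total. Transcript levels do not measure phosphorylation, so the activity of either branch was not examined.

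**Figure D5:**
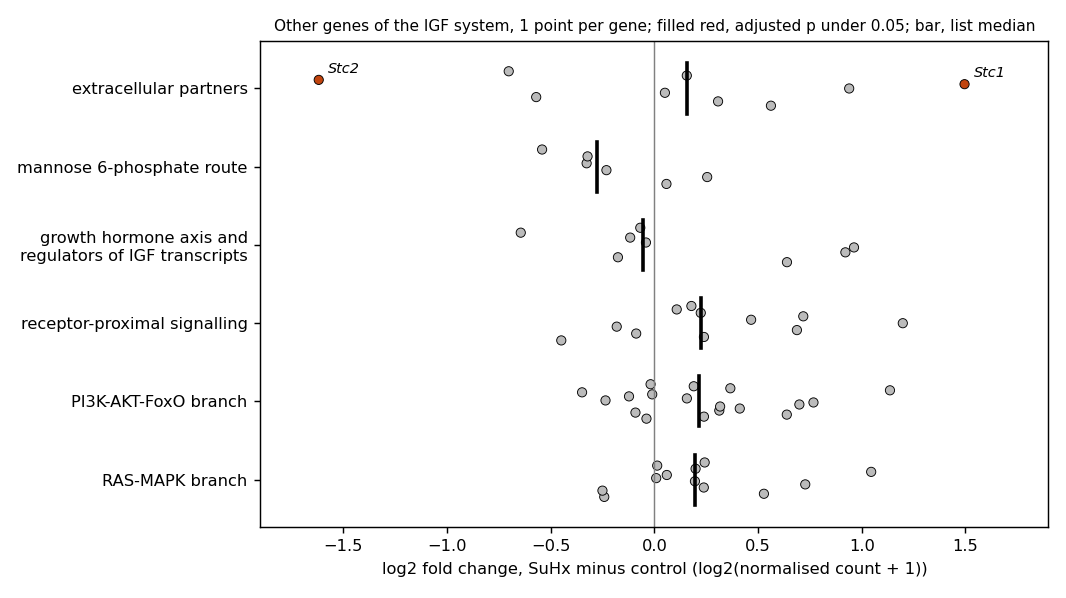
Log2 fold change of each tested gene of the 6 IGF pathway lists, SuHx minus control (x axis, log2(normalised count + 1)), 1 point per gene, with the median of each list as a bar. Only Stc1 (1.50) and Stc2 (-1.62) are filled as called, at opposite ends of the extracellular partners.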

How the data were processed

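The data were RNA-seq of 3 control and 3 SuHx RV libraries. The authors quantified reads with Salmon 0.14.1 against a transcriptome for which their methods name the mouse build GRCm38.p6, and the authors used DESeq2 1.24.0. The row names include rat names, and which index gave these values was not settled. The deposited values are a normalised signal per gene and library, that is, counts the authors normalised with DESeq2. Between 92.5% and 96.9% of values below 12 were whole multiples of a single step per library (tolerance 0.1), too few to recover whole reads, so no count model was run and depth in reads is not given. The row with no gene name (0.00143% to 0.00514% of a library) was left out, and 0 value columns were left unused.

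Log2(value + 1) was fitted for the 10725 genes averaging 10 or more with limma 3.58.1 in R 4.3.3, with a mean-variance trend, for SuHx against control, and p-values were adjusted over all tested genes. A fold change is on that scale and understates changes of low genes. Means ± SD are of the normalised counts. Single values were also compared by exact permutation (scipy 1.17.1), and figures were drawn with matplotlib 3.10.9. The fit was tested on simulated data. The genes and lists were chosen with earlier results of these data known. By rule, all members were named, then the called genes of each list or, with none called, its 2 genes of highest mean, and the 3 genes nearest in pattern to each called member, Igf1 and Igf2. A gene that the rule names is not reported here. Genes outside the rule, other than markers, are identified where they appear. Leaving genes listed at 0 in a library out of the long-transcript score was also decided after its values were seen. Alternatives covered the pseudocount, the filter, rescaling, moderation, library weights and libraries left out. Promoter sequences are from RefSeq (GRCr8), in which all 10 symbols matched.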

Additional observations from a re-analysis of the deposited data

How the results depend on the processing

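No paired analysis was possible because the SuHx columns carry no replicate number that ties them to a numbered sample. The number of IGF genes called higher was 1, and it was 0 with no filter on low values, at the same total, at the same total without mitochondrial transcripts, without a mean-variance trend and with controls 1 and 3 left out together, and 0 to 1 with 1 library left out; the gene was Igfbp6 throughout. No IGF gene was called lower in any of the 17 alternatives. With controls 1 and 3 left out, the single control was assumed to vary like the other libraries.

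Signs that turned were all of values that were not called. At the same total, which moved the median of all tested genes to -0.31, the log2 fold change was -0.13 for Igfbp4, -0.22 for Igfbp7, -0.26 for Gga1, -0.065 for Gga2, -0.082 for Akt2 and -0.31 for Map2k2. At the same total without mitochondrial transcripts it was -0.042 for Gga1 and -0.091 for Map2k2. With controls 1 and 3 left out it was 0.0073 for Igfbp5, -0.15 for Gga2 and -0.013 for Akt2. With 1 library left out it ran from -0.47 to 0.24 for Igf1, -0.43 to 0.23 for Igfbp5, -0.026 to 0.21 for Igfbp7, -0.25 to 0.097 for Stat5b, -0.46 to 0.038 for Ghr, -0.73 to 0.20 for Irs1, -0.12 to 0.10 for Akt1, -0.010 to 0.36 for Akt2 and -0.11 to 0.14 for Map2k2. The log2 difference of Igf1 minus Igf2 ran from -0.042 to 1.01.

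Over all alternatives, the extracellular partners had 0 to 1 genes called higher and 0 to 1 lower, the growth hormone axis 0 to 1 lower and receptor-proximal signalling 0 to 1 higher, where the main counts were 1, 1, 0 and 0. All genes called higher numbered 166 and lower 72, with 90 and 191 at the same total and 11 and 6 without SuHx C. The median standard error of a log2 fold change was 0.24 over all tested genes, which limits what 3 libraries a group can show. Of the named genes given with a test, Igfbp6, Stc1, Stc2, Ptpn11 and Postn changed their call in some alternatives, as given above. Fuca1, Klhl6, Mxra7, Ikbip, Pcdhb10, Dkk3, Dhx35, Rnf122 and Ndufs7 were named for their pattern alone, and their calls under the alternatives are not given. Nor is that of Utrn, which is named as a gene of the long-transcript score. The cause of these changes was not tested.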
